A study of Mus musculus with 8 samples.

Results

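RNA levels of 10 transcription factor genes known from lymphoid development were followed in mouse multipotent progenitors (MPPs). The genes were taken by name: Ikzf1, Ikzf2, Ikzf3, Satb1, Bcl11a, Mef2c, Foxp1, Ebf1, Pax5 and Gata3. All 10 had a row in the table of 37980 genes, in which 17710 genes had a value above 0. NA MPPs came from C57BL/6 mice that carry the NUP98-HOXA10hd fusion gene (NA), in which the DNA-binding homeodomain of HOXA10 is joined to part of the nucleoporin NUP98. Per the study, the fusion was expressed from the Rosa26 locus, and NA LSL/+ mice were bred with Vav-Cre mice (NA LSL/+; Vav-Cre). LSL is read here as a stop cassette that Cre removes, with Vav-Cre active in blood cells. WT MPPs came from C57BL/6 mice labelled WT. For the mice behind these libraries neither age nor sex was given, and WT mice were not stated to carry Cre. Both groups were sorted as Lin-, CD48-, c-kit+, Sca1+, CD135+ and CD150- cells, 1000 cells to a library, with 4 NA MPP libraries (NA1 to NA4) and 4 WT MPP libraries (WT1 to WT4).

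MPPs give rise to all blood lineages, and some of them carry low levels of lymphoid transcripts before any lineage is fixed. The factors studied here act at successive steps of that path. Ikaros (Ikzf1), Helios (Ikzf2), SATB1, BCL11A, MEF2C and FOXP1 act from early progenitors on, whereas Aiolos (Ikzf3) acts later in B and T cells. GATA3 acts mainly in T and innate lymphoid cells, and EBF1 and PAX5 specify the B lineage and then hold it.

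Estimated depth was 3876906 to 4916987 reads per library, and all values below are normalised counts, which are RSEM expected counts divided by a size factor per library. NA4 and WT4, the fourth libraries, were each closer to a mixture of the other libraries of their group than those libraries were. When a library was fitted as a weighted sum of the other 3 of its group, the variance left beyond counting was 0.00543 for NA4, against 0.0133 to 0.0373 for NA1 to NA3, and 0.00314 for WT4, against 0.0104 to 0.0212 for WT1 to WT3. The labels do not say whether NA4 and WT4 were independent samples. If they were not, n = 4 overstates the replication, so results are also given without them. Sex-linked transcripts also separated the groups, since Xist was at 869 to 1285 normalised counts in WT libraries and at most 2.8 in NA libraries, while Ddx3y was at 281 to 668 in NA libraries and at most 0.888 in WT libraries. The labels give no sex, but by these transcripts the WT cells were female and the NA cells male. The part of sex in any difference cannot be told apart from that of the fusion. Fos, an early-response gene, was at 19676 to 21297 normalised counts in NA libraries and at 804 to 3154 in WT libraries, and whether this response moves with the lymphoid factors was not tested. Hoxa10 averaged 324 ± 32 over NA and 139 ± 8.0 over WT libraries (SD, n = 4 each, limma adjusted p = 2.57e-05), and the table does not separate reads of the fusion from those of the endogenous gene. Nup98 averaged 85.0 ± 10.9 and 72.2 ± 12.1 (SD, n = 4 each, limma adjusted p = 0.443). The genes of the gate were present, with Kit at 1103 to 1490 and Flt3 at 1274 to 1498 normalised counts over the 8 libraries. Of 7 listed surface marker genes, 2 were lower in NA MPPs and none was higher (28.6% called, against 17.9% of all genes tested). This list also holds Cd34 and Ptprc, which the sort given above does not name. Ly6a, which encodes Sca1, was at 1221 to 1408 in NA and 1482 to 1614 in WT libraries (limma adjusted p = 0.0257, and 0.163 without the fourth libraries). Cd48, whose protein the gate excludes, was at 12.2 to 22.4 and 34.2 to 83.8 (limma adjusted p = 0.00711, and 0.0675 without the fourth libraries). Whether the sorted cells of the groups differed in makeup was not tested.

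Of the 10 factors, Foxp1 and Mef2c were higher and Satb1 was lower in NA MPPs. Foxp1 was 1.53-fold higher, Mef2c 1.41-fold higher and Satb1 1.54-fold lower, each without overlap between the 4 NA and the 4 WT libraries. Such a lack of overlap, in either direction, was seen for 22.0% of all genes tested. Ikzf1, Ikzf2, Bcl11a and Gata3 were present in every library and did not pass the test. Ikzf3 and Pax5 had no read in any library, and Ebf1 had 1 estimated read, in NA4. Thus 7 factors entered the test, and 3 of them were called at a limma adjusted p below 0.05, where 17.9% of the 11451 genes tested were called, 10.1% higher and 7.87% lower. The median log2 fold change of the 7 was 0.21, against -0.011 over all genes tested. Of 12 commonly used reference genes, 6 were called, 2 higher and 4 lower. Among them Ywhaz was 1.71-fold higher, Actb 1.45-fold higher and Polr2a 1.67-fold lower in NA MPPs, and these 3 were chosen after their values were seen. The rest of those called moved less, with B2m and Ppia each 1.24-fold lower and Gusb 1.35-fold lower. The 6 not called differed by at most 1.17-fold (Sdha).

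Sequence upstream of the 3 changed genes is shown because HOX and MEIS proteins bind DNA at short cores that can be looked for there. The windows cover the 250 bases before annotated RefSeq starts (GRCm38.p6), each is written 5′ to 3′ on the strand of its gene, and the capitals mark a match. The first is before the second of 3 Foxp1 starts (chr6:99266516-99266765, minus strand), with a MEIS core on the opposite strand. The second is before the fifth of 5 Satb1 starts (chr17:51812055-51812304, minus strand), with an Ikaros core on the opposite strand. The last is before the first of 3 Mef2c starts (chr13:83503784-83504033, plus strand), without a match. For Foxp1 and for Satb1, the window printed is the only one of its gene that holds a match.
Foxp1: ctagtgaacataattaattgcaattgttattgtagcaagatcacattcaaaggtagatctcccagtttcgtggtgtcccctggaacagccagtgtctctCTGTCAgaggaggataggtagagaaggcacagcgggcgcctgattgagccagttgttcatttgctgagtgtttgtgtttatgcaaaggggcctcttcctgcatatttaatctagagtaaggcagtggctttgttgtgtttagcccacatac
Satb1: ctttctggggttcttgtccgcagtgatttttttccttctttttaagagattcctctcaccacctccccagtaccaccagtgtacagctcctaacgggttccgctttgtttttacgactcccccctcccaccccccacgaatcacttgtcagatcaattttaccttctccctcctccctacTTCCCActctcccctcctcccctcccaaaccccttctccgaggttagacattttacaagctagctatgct
Mef2c: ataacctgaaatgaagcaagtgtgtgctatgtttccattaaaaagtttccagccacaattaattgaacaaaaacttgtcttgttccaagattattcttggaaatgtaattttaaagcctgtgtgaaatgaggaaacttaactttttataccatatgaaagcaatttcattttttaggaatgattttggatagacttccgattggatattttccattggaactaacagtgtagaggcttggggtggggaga

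Cores were searched on both strands as TTTATNG for posterior HOX proteins, TGACAG for MEIS proteins and TGGGAA for Ikaros. Over the 11 windows of Foxp1, Satb1 and Mef2c, no window held the HOX core, 1 held the MEIS core and 1 held the Ikaros core. Over all 32851 promoter windows of this length, 9.81% held the HOX core, 15.9% the MEIS core and 21.6% the Ikaros core. The 3 windows printed differ in base composition, with 45.2% G or C before Foxp1, 50.8% before Satb1 and 33.6% before Mef2c. Windows were found for 8 of the 10 factors.

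Foxp1 encodes a forkhead repressor required in early B cell development (ENSMUSG00000030067, chr6:98925338-99522721). It was at 1075, 1140, 1101 and 1133 normalised counts in NA1 to NA4 and at 782, 662, 756 and 701 in WT1 to WT4. Every NA library lay above every WT library. NA libraries averaged 1112 ± 30.3 and WT libraries 725 ± 53.8 (SD, n = 4 each), and the log2 fold change was 0.62 ± 0.0845 (SE, limma adjusted p = 0.000254). Without the fourth libraries the log2 fold change was 0.59 (limma adjusted p = 0.0104), where 4.58% of tested genes were called, 3.31% higher and 1.27% lower.

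Mef2c encodes a MADS-box factor that favours lymphoid over myeloid fate in early progenitors (ENSMUSG00000005583, chr13:83504034-83667080). Its counts were 867, 1073, 1044 and 1018 in NA1 to NA4 and 714, 676, 716 and 729 in WT1 to WT4. NA1 was the lowest of the NA libraries and still lay above all WT libraries, which were close to one another. NA libraries averaged 1001 ± 91.9 and WT libraries 709 ± 22.8 (SD, n = 4 each), and the log2 fold change was 0.49 ± 0.0903 (SE, limma adjusted p = 0.00222). Without the fourth libraries it was 0.50 (limma adjusted p = 0.0359).

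Satb1, a chromatin organiser with known roles in lymphoid priming and in T cell development (ENSMUSG00000023927, chr17:51736187-51833290), went the other way. It was at 268, 253, 280 and 302 normalised counts in NA1 to NA4 and at 412, 489, 365 and 439 in WT1 to WT4. All NA libraries lay below all WT libraries, with the wider spread among the latter. NA libraries averaged 276 ± 20.9 and WT libraries 426 ± 51.7 (SD, n = 4 each), and the log2 fold change was -0.62 ± 0.118 (SE, limma adjusted p = 0.00287). Without the fourth libraries it was -0.65 (limma adjusted p = 0.0354).

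**Figure D1:**
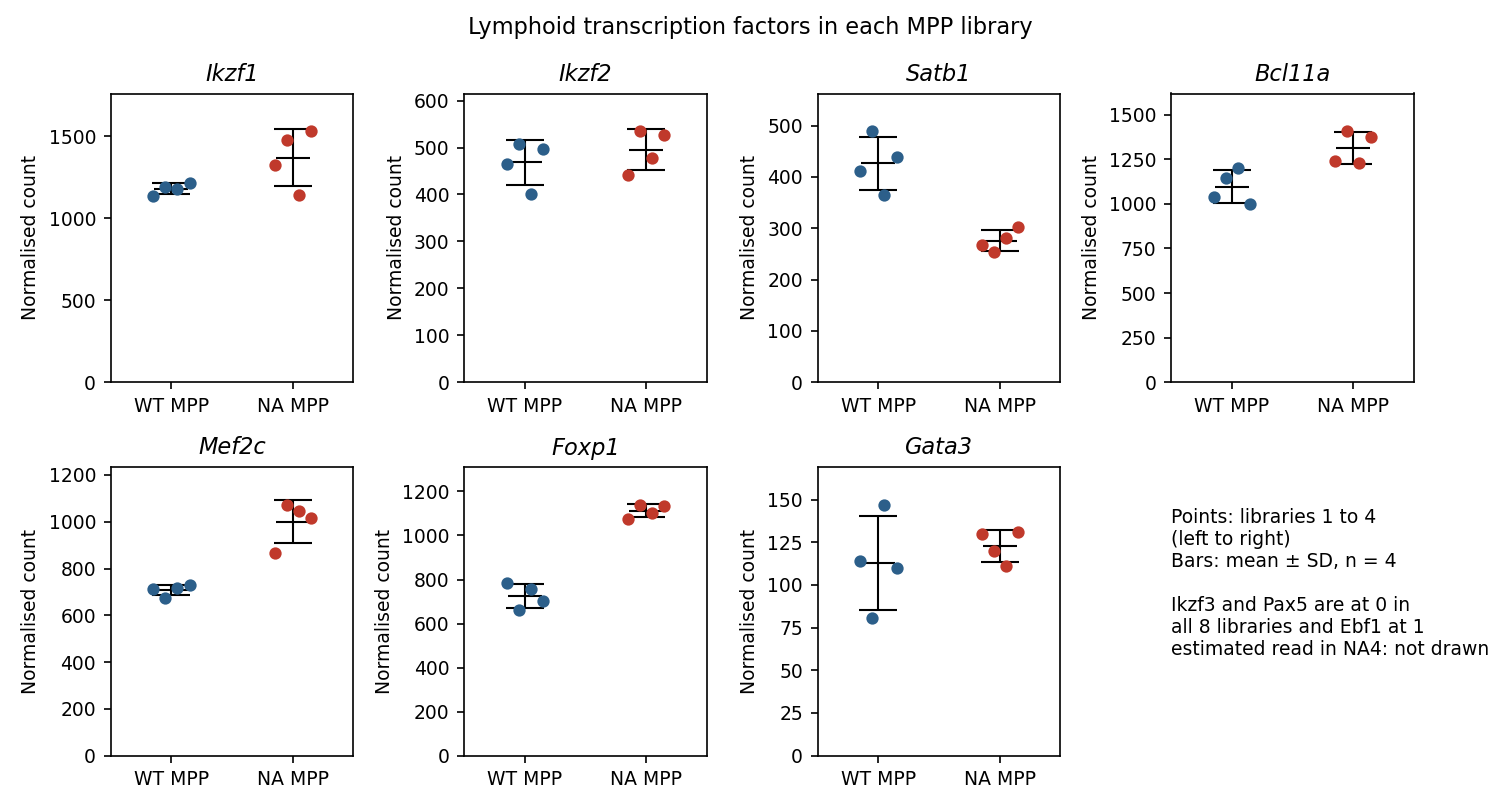
Normalised counts (y axis, from 0) of the 7 detected lymphoid transcription factors in each WT (blue) and NA (red) MPP library, with the mean and SD of 4 libraries. Foxp1, Mef2c and Bcl11a lie higher and Satb1 lower in all NA libraries than in any WT library, though Bcl11a did not pass the test (limma adjusted p = 0.0538), while Ikzf1, Ikzf2 and Gata3 overlap.

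Bcl11a, a zinc finger repressor needed for B cell development and known for silencing fetal globin genes (ENSMUSG00000000861, chr11:24078056-24174123), was close to the threshold. Its counts were 1243, 1408, 1228 and 1374 in NA1 to NA4 and 1038, 1148, 1200 and 999 in WT1 to WT4. The groups did not overlap, as for 22.0% of the genes tested, although NA3 and WT3 were nearly equal. The log2 fold change was 0.26, with a 95% interval of 0.07 to 0.45 (limma adjusted p = 0.0538). It passed the threshold without NA3 (limma adjusted p = 0.0404), without WT3 (0.0414), when the filter asked for a mean of 50 or more (0.0467) and with depth class in the model (0.0358). Without the fourth libraries the log2 fold change was 0.20 (limma adjusted p = 0.358).

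Of the Ikaros family factors, Ikzf1 and Ikzf2 did not pass the test, and Ikzf3 was too low to be tested. Ikzf1 encodes Ikaros, a zinc finger protein required for lymphoid development (ENSMUSG00000018654, chr11:11685003-11772926). It was at 1322, 1477, 1144 and 1531 normalised counts in NA1 to NA4 and at 1136, 1188, 1181 and 1214 in WT1 to WT4. NA1, NA2 and NA4 lay above all WT libraries and NA3 lay among them. The coefficient of variation was 12.7% over the NA libraries and 2.73% over the WT libraries. The log2 fold change was 0.21 (unadjusted p = 0.0476, adjusted p = 0.149 by limma), and it passed only when NA3 was left out among the alternatives run (limma adjusted p = 0.0267). NA3 was also the library with the smallest share in its 10 most abundant genes, and the part of that in the Ikzf1 value was not tested.

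Ikzf2, which encodes Helios, a family member expressed in early progenitors and in T cells (ENSMUSG00000025997, chr1:69531214-69687245), ranged from 442 to 535 normalised counts over NA and from 401 to 508 over WT libraries. The ranges overlapped, although NA2 and NA4 lay above all WT libraries and WT3 lay below all NA libraries. The log2 fold change was 0.08, with a 95% interval of -0.15 to 0.32 (limma adjusted p = 0.638). Ikzf3, which encodes Aiolos and acts later in B and T cells, was at 0 in all 8 libraries. A count of 0 allows up to 3 reads, which is 2.66 to 3.54 normalised counts depending on the library and covers counting error only. None of the 12 reference genes was at 0 in these libraries, and the lowest value among them was 290, for Polr2a in NA3. Genes this abundant do not show whether a low transcript was missed.

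The factors that specify and hold the B lineage were at or near 0. Pax5 was at 0 in all libraries, with the same limit as Ikzf3. Ebf1 was at 1.18 normalised counts in NA4, which is 1 estimated read, and at 0 in the other 7 libraries. No difference in either gene was detectable at this depth.

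Gata3, a zinc finger factor of T and innate lymphoid cells that is also expressed in blood stem cells (ENSMUSG00000015619, chr2:9857078-9890034), was present in every library. Its counts were 130, 120, 111 and 131 in NA1 to NA4 and 114, 80.4, 147 and 110 in WT1 to WT4. All NA libraries fell within the range of the WT libraries, which was set by WT2 and WT3. The log2 fold change was 0.15, with a 95% interval of -0.26 to 0.56 (limma adjusted p = 0.616). This interval is the widest of the 7 tested factors.

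**Figure D2:**
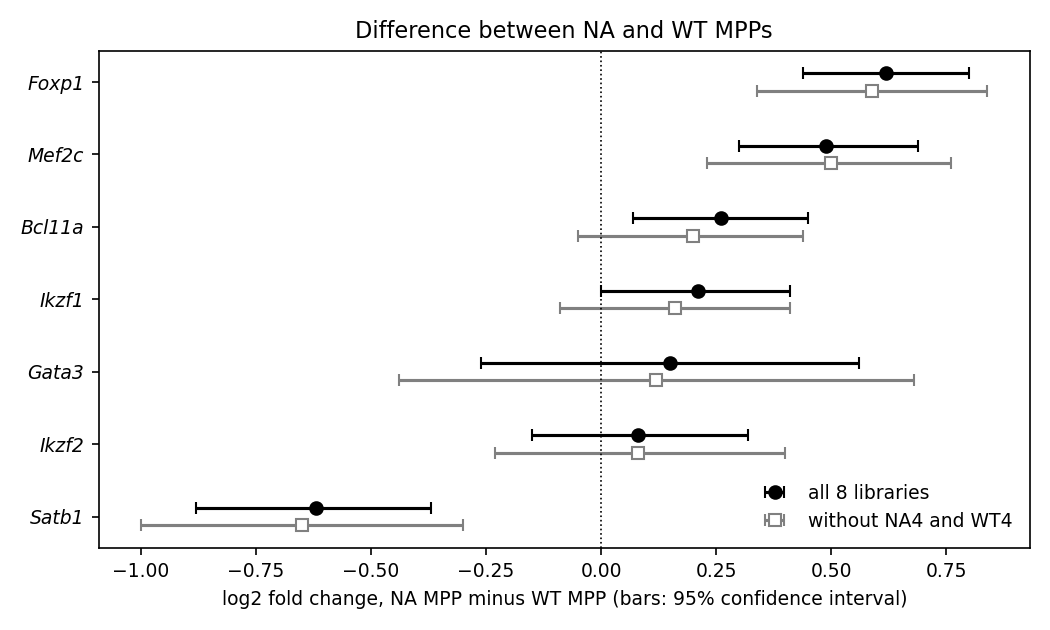
Log2 fold change of NA over WT MPPs (x axis) with its 95% confidence interval from limma for the 7 tested factors, over all 8 libraries (filled circles) and without NA4 and WT4 (open squares). The intervals of Foxp1, Mef2c and Satb1 lie away from 0 in both, whereas that of Bcl11a, 0.07 to 0.45 over all libraries, reaches -0.05 without the fourth libraries.

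Levels of the factors were compared with one another as normalised counts per kb of the longest coding transcript. Ikzf1 was highest in both groups, with 265 ± 33.7 per kb over NA and 228 ± 6.23 over WT libraries (SD, n = 4 each). In WT MPPs the order went on with Bcl11a (183 per kb), Mef2c (113), Foxp1 (101), Satb1 (68.3), Ikzf2 (50.5) and Gata3 (35.1). The ranges of Mef2c and Foxp1 overlapped, as did those of Ikzf2 and Gata3, and the other neighbours were separate. In NA MPPs Satb1 (44.2 per kb) came after Ikzf2 (53.4), and Ikzf1 overlapped with Bcl11a, Mef2c with Foxp1, Ikzf2 with Satb1 and Satb1 with Gata3. With the mean length of coding transcripts in place of the longest, Ikzf1 stayed first and Gata3 last of the 7, while Bcl11a, Mef2c and Foxp1 changed places and Satb1 came after Ikzf2 in both.

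**Figure D3:**
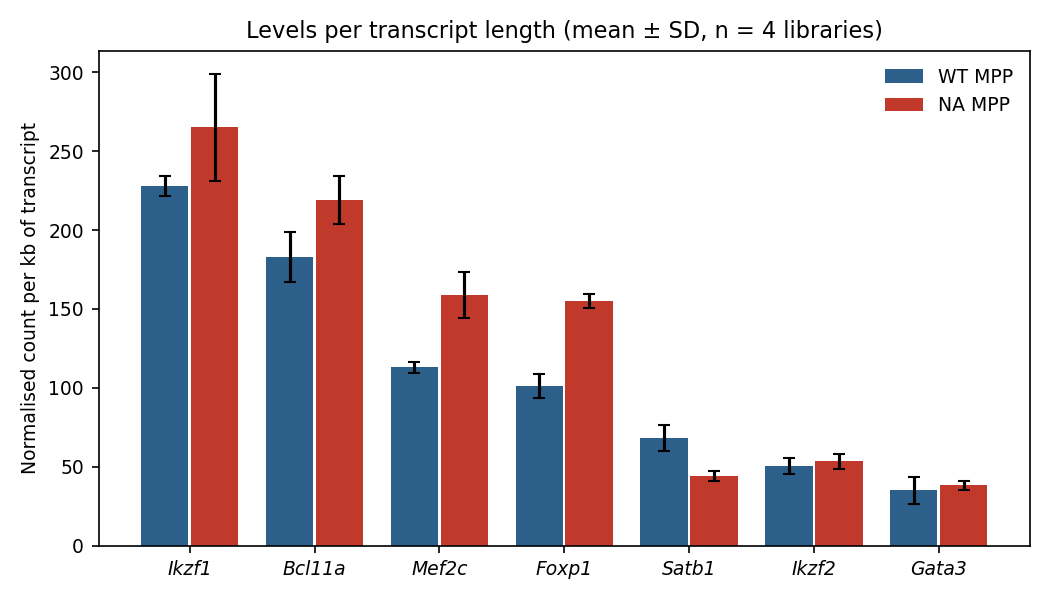
Mean level per kb of the longest coding transcript (y axis, from 0) of the 7 detected factors in WT (blue) and NA (red) MPPs, with SD over 4 libraries. Levels run from Ikzf1, at 228 per kb in WT and 265 in NA MPPs, down to Gata3, at 35.1 and 38.3.

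The genes whose values followed those of the 3 changed factors most closely over the 8 libraries were found by Pearson r of log2 values, among 8869 other genes. For Foxp1 they were Tcf4 (r = 0.991), Entr1 (0.99) and Zfp280d (0.988). For Mef2c they were Asap1 (r = 0.99), Tob1 (0.988) and Anxa4 (0.988), and for Satb1 they were Zfp956 (0.986), Ttpa (0.985) and Acss2 (0.98). These values are a description: the points share 2 groups that differ, so any gene with a like group difference scores high.

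Other regulators of lymphoid fate were examined as a list of 20 genes, of which 16 were tested. Of these, 6 were higher and 1 was lower in NA MPPs (43.8% called, against 17.9% of all genes tested). The median log2 fold change was 0.13, but 0.41 without NA1, 0.28 without WT4 and 0.32 without NA4 and WT4. The list holds E proteins, helix-loop-helix factors that drive lymphoid genes, and Id proteins, which bind and block them. Tcf3 (E2A) averaged 252 ± 28.4 normalised counts over NA and 127 ± 32.6 over WT libraries (SD, n = 4 each, limma adjusted p = 0.00156). Tcf12, another E protein, named after its values were seen, did not pass the test, with 563 ± 44.0 and 511 ± 23.4 (SD, n = 4 each, limma adjusted p = 0.35). Id2 was at 51.2 ± 3.13 and 23.8 ± 7.04 (limma adjusted p = 0.0174) and Id3, which had no read in WT1, at 81.5 ± 28.9 and 16.9 ± 17.7 (limma adjusted p = 0.0187, SD, n = 4 each). Irf8, a factor of B, dendritic and monocyte fate, was the gene that was lower, at 23.7 ± 7.47 against 48.9 ± 8.61 (SD, n = 4 each, limma adjusted p = 0.0335). The other called genes, named to complete the count after their values were seen, were Tcf4 at 0.67 on the log2 scale, Runx3 at 0.76 and Tox at 0.60. Tcf3, Tcf4 and Runx3 were also called without the fourth libraries, whereas Id2 (limma adjusted p = 0.133), Id3 (0.0743), Irf8 (0.186) and Tox (0.164) were not.

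Of 15 listed paralogs of the factors, 6 were tested, with a median log2 fold change of 0.01 that ran from -0.06 to 0.11 over the alternatives, and 1 was called (16.7%, against 17.9% of all genes tested). This was Gata2, a stem and progenitor cell factor, with means of 1166 ± 77.8 over NA and 930 ± 96.1 over WT libraries (SD, n = 4 each, limma adjusted p = 0.0275, and 0.192 without the fourth libraries). Ikzf4, of the Ikaros family, lay higher without passing, at 16.8 to 45.2 normalised counts in NA and 10.7 to 15.9 in WT libraries. Its log2 fold change was 1.13 (limma adjusted p = 0.0533, and 0.344 without the fourth libraries). Foxp4 lay lower without passing, at -0.85 on the log2 scale (limma adjusted p = 0.194). Among 13 tested subunits of NuRD, the chromatin remodelling complex that Ikaros proteins recruit, 1 was higher and 2 were lower (23.1% called). Their median of 0.06 changed sign without WT3 (-0.05), without NA3 (-0.01), with a mean filter of 50 (-0.04) and with scaling by the total (-0.01). Chd3, an ATPase of the complex, was at 323 ± 54.5 and 568 ± 39.7 (SD, n = 4 each, limma adjusted p = 0.000491, and 0.0134 without the fourth libraries). Hdac1 was lower, at -0.48 on the log2 scale (limma adjusted p = 0.0407), and Mbd2 higher, at 0.48 (limma adjusted p = 0.00592), and neither was called without the fourth libraries (0.197 and 0.0681).

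Among 10 lymphoid priming transcripts, 5 were tested, with a median log2 fold change of -0.28, and -0.15 with the GC trend removed. Of these, 2 were lower and none was higher in NA MPPs (40.0% called, against 17.9% of all genes tested). Dntt, the terminal transferase of antigen receptor joining, had the larger change of the pair, with 38.1 ± 12.3 normalised counts over NA and 217 ± 20.6 over WT libraries (SD, n = 4 each, limma adjusted p = 5.47e-06). Cd27, a receptor of the TNF receptor family, was lower at -0.30 on the log2 scale (limma adjusted p = 0.032, and 0.143 without the fourth libraries). The other tested priming genes did not pass, with Lsp1 at -0.28 (limma adjusted p = 0.0545), Flt3 at 0.07 (0.554) and Blnk at 0.02 (0.976). Of 11 B cell genes, 4 were tested and 1 was called (25.0%, against 17.9% of all genes tested). This was Ighm, lower at 140 ± 10 against 331 ± 91.7 (SD, n = 4 each, limma adjusted p = 0.000383). Cd72 lay higher, at 430 ± 36.3 against 366 ± 54.3, without passing (SD, n = 4 each, limma adjusted p = 0.191). Cd79b and Cr2 lay lower without passing, at -0.49 and -1.64 on the log2 scale. Cr2 was at most at 16.6 normalised counts in any library. The median log2 fold change of the 4 was -0.85, and -0.49 with no filter or with a mean filter of 50. The summed level of the B cell list was 703 to 802 in NA and 735 to 1128 in WT libraries, with Igll1, Cd22, Ms4a1 and Fcrla at 0 in all 8 libraries. Of 12 T cell genes, 4 were tested and 1 was called (25.0%, against 17.9% of all genes tested). This was the kinase gene Lck, which was lower (log2 fold change -0.64, limma adjusted p = 0.037, and 0.241 without the fourth libraries). The median of those 4 was -0.39, but -0.25 without WT1, -0.60 without WT3, -0.14 with no filter and -0.64 with a mean filter of 50. The T cell list summed to 176 to 245 in NA and 228 to 354 in WT libraries, with Cd3d, Cd3e, Cd3g, Ptcra and Cd8a at 0 in all 8. In sorted populations of this kind, fewer cells with a transcript and less RNA per cell cannot be told apart.

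**Figure D4:**
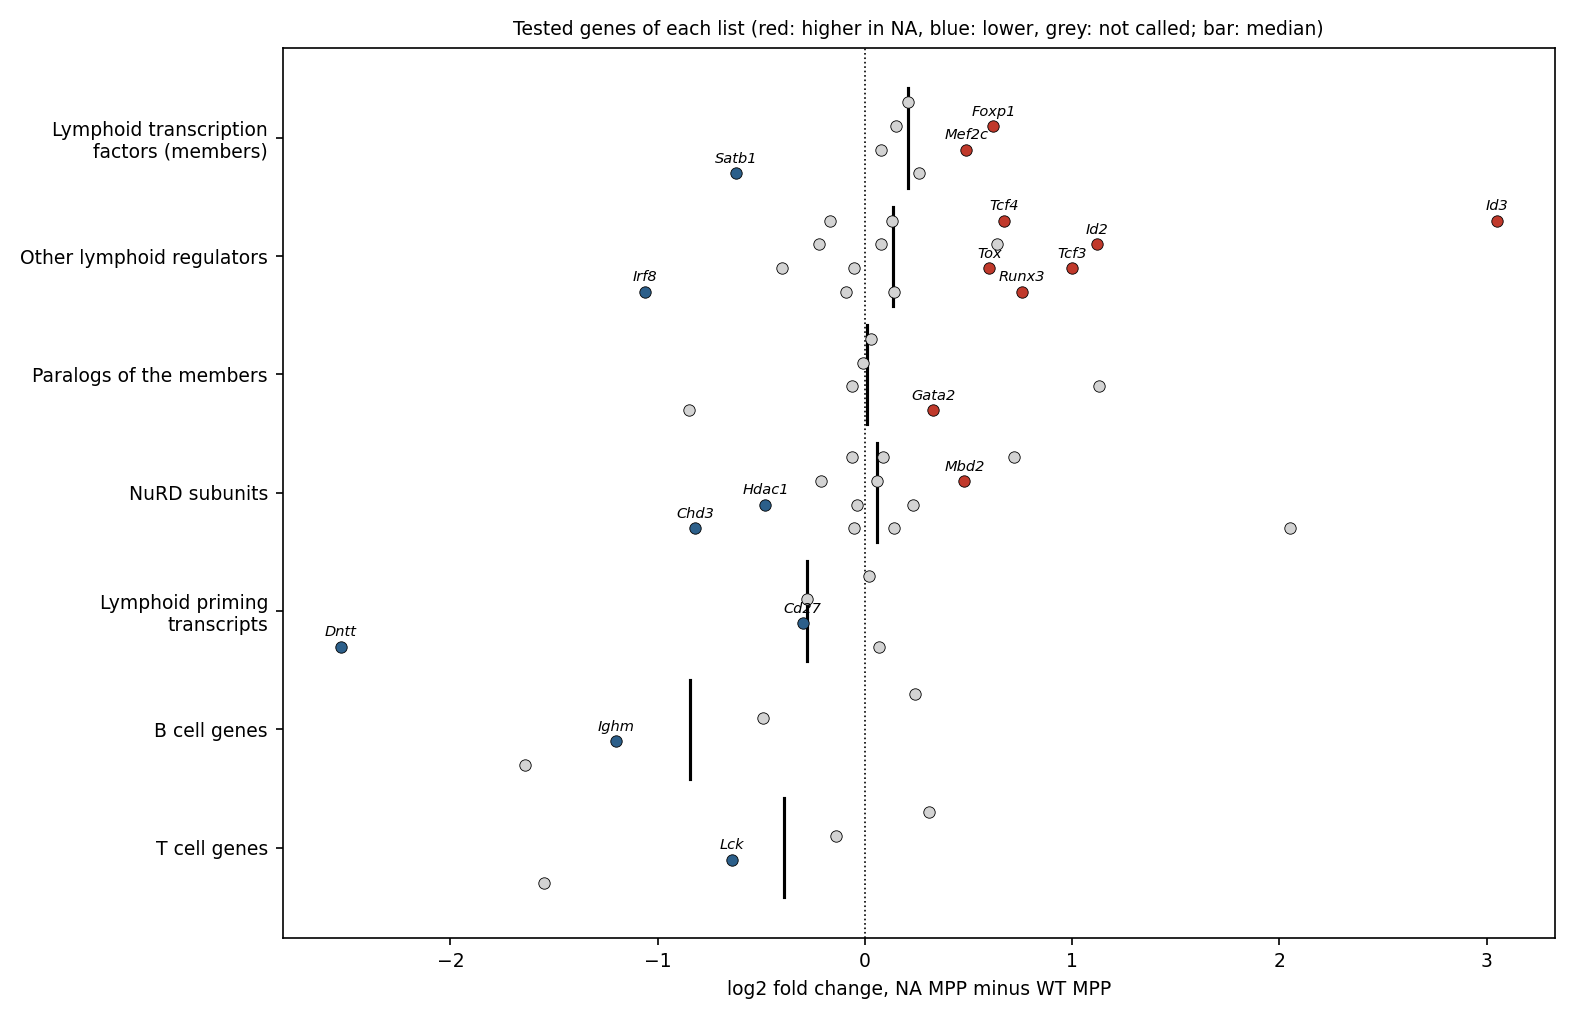
Log2 fold change of NA over WT MPPs (x axis) for the tested genes of each list (rows), with genes called higher in red, called lower in blue and not called in grey, and the list median as a black bar. The lymphoid transcription factors and the other regulators hold genes in both directions, whereas the called lymphoid priming, B cell and T cell genes, from Dntt at -2.53 to Cd27 at -0.30, all lie below 0. Of these, Cd27 and Lck were not called without the fourth libraries. The genes not called in the priming, B cell and T cell lists lie on both sides, from Cr2 at -1.64 to Thy1 at 0.31.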

How the data were processed

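Per the labels and the methods of the study, amplified cDNA of 1000-cell aliquots was made into Nextera XT libraries, and the authors used RSEM and DESeq2 with genome build mm10. Versions, annotation and strand use were not given in the sources used here. The deposited signal is normalised, with expected counts from RSEM already divided by a size factor for each library: values above 0.5 were whole multiples of 1 step per library within 0.05 reads in 98.3% to 98.8% of cases. The values divided by that step gave estimated reads, used for depth and floors. GENCODE M21 (GRCm38) named 32916 of all rows, and 93.8% of the rows above 0 had a name.

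Tests used log2(value + 1) and limma 3.58.1 (R 4.3.3), two-sided, with a variance trend, no covariates and Benjamini-Hochberg adjustment over genes with at least 10 in at least 4 libraries. Fold changes are on that scale. Simulated data with 200 changed genes among 11451 gave 65% of 2-fold and 89% of 4-fold changes back, and 4.94% of calls were unchanged genes. The simulated libraries were independent, and fewer genes were changed than the 2053 called here. Changes below 2-fold were also not simulated. These rates therefore do not carry over to changes of 1.41- to 1.54-fold, as for the 3 called factors. The labels do not say whether libraries came from separate mice, so p-values measure only the spread between libraries, which may be technical. Members and lists were chosen with earlier results of these data known, and no list was tested as a set. All members were named, with up to 4 called genes of each list by size of change and the 3 genes most like each called member. Some listed genes are not reported here and were left out of their lists. The lists for sex-linked, early-response and reference genes were added later.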

Additional observations from a re-analysis of the deposited data

Results flagged for a closer look

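In 3 of 19 groups of 4 values (the 10 factors, depth and the share of the most abundant genes), 1 library lay far from the other 3 of its group by Dixon's test, which flags about 1 in 20 groups by chance. Ebf1 was at 1.18 normalised counts in NA4, 1 estimated read, and at 0 in the other NA libraries. With 3 values at 0 any read in the remaining library is flagged, so this flag carries no information. The estimated depth of NA4 was 3887855 reads, below the 4909391 to 4916987 of NA1 to NA3. The share taken by the top 10 genes was 10.2% in NA3 and 12.2% to 12.5% in NA1, NA2 and NA4.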

How the results depend on the processing

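The calls of Foxp1, Mef2c and Satb1 held under all 20 alternatives, with log2 fold changes of 0.52 to 0.66, 0.34 to 0.56 and -0.72 to -0.55, and the highest limma adjusted p of each was 0.0104, 0.0359 and 0.0354, without the fourth libraries. Factors called higher numbered 2 to 4 when 1 library was left out, with 4 without NA3. Ikzf2 turned to -0.08 with the GC trend removed (limma adjusted p = 0.62). Over all genes, 524 were called without the fourth libraries (379 higher, 145 lower) and 595 lower genes without a variance trend. Leaving out 1 library gave 1125 to 2176 called genes, 675 to 1186 higher and 450 to 1001 lower, the fewest without NA4. Scaling by the total made 41.3% of called genes higher, against 56.1%, and moved the median of all genes from -0.011 to -0.079. With the replicate number as a block (replicate block) 2004 genes were called, the 3 factors included. Same-numbered libraries correlated in their deviations at 0.0131 to 0.158, and 4 of 8 correlated best with their own number, so the numbers were not taken as pairs. The replicate block ended the Lck call (limma adjusted p = 0.0502). The planned tests on whole reads were not run, because fractional assignments remained. The cause of these changes was not tested. Depth limits Ikzf3, Pax5 and Ebf1.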

Other observations

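Markers of other blood cells were listed as well, where 17.9% of all genes tested were called. Of 10 granulocyte and monocyte genes, 3 were tested and 2 were lower in NA MPPs, Prtn3 with means of 1523 ± 154 and 2028 ± 292 (SD, n = 4 each, limma adjusted p = 0.0181) and Mpo with means of 13.2 ± 7.83 and 37.0 ± 14.6 (SD, n = 4 each, limma adjusted p = 0.0422), and neither passed without the fourth libraries (0.0881 and 0.143). Elane was at 0 in all libraries. Of 10 erythroid genes, 2 were tested and Hbb-bt was lower, at 41.2 ± 12 against 163 ± 24 (SD, n = 4 each, limma adjusted p = 6.79e-05). The value of Hbb-bt is uncertain, since Hbb-bs is a near copy. No gene was called among 6 tested megakaryocyte, 2 dendritic cell, 1 NK and innate lymphoid and 1 mast cell and basophil genes. Summed levels over NA and WT libraries were 1716 to 2209 and 2291 to 3013 normalised counts for the granulocyte and monocyte list, 4531 to 5174 and 4644 to 4875 for the erythroid list, and 2795 to 3089 and 2616 to 2771 for the megakaryocyte list. They were 68 to 80 and 47 to 104 for dendritic cells, 18 to 34 and 8 to 26 for NK and innate lymphoid cells, and 18 to 35 and 10 to 22 for mast cells and basophils.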
